A study of Mus musculus with 24 samples.

Results

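The clustered protocadherin genes are 3 neighbouring gene clusters, alpha, beta and gamma, on mouse chromosome 18. Members were chosen by name and biotype: every protein-coding gene of the deposited table whose symbol is Pcdha or Pcdhac, Pcdhb, or Pcdhga, Pcdhgb or Pcdhgc followed by a number. The rule found 58 of 57180 genes, 14 in the alpha, 22 in the beta and 22 in the gamma cluster. The family was taken up with results of these data known, Pcdhb16 having been among the genes with the largest difference between sarcosine and vehicle. That contrast is therefore given as a description, without p-values for the members.

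Bulk RNA was sequenced from frozen punches of the frontal cortex of wild-type C57BL/6 male mice, 4 weeks old, that received 1 intraperitoneal injection a day for 28 days. The 4 groups of 6 libraries received vehicle, sarcosine at 100 mg/kg, memantine at 20 mg/kg, or memantine at 20 mg/kg with sarcosine at 100 mg/kg, called the combination here. Sarcosine (N-methylglycine) blocks a glycine transporter, and memantine blocks the channel of NMDA-type glutamate receptors. The series title asks whether memantine reverses what sarcosine changes in young mice, so the combination is compared with each drug alone as well as with vehicle.

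The clustered protocadherins are cadherin-like adhesion proteins of neurons. Each alternate gene has its own promoter and a large variable exon that encodes the extracellular part, and in a given neuron only some of the promoters are active. The proteins form mixed complexes that bind like complexes on the opposing membrane, and this recognition underlies the self-avoidance of dendrites and axons in the mouse. The genes called C-type, at the end of the alpha and gamma clusters, are not subject to the same random choice. Alpha and gamma variable exons are spliced to constant exons shared by the whole cluster, which encode a common intracellular part, whereas the beta genes have no such constant exons.

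That gene structure decided what could be counted. In the GENCODE vM21 annotation, every tested alpha and gamma gene shared exon sequence with its neighbours, while 18 of the 21 tested beta genes shared none. Of the 147 protein-coding genes that have no exon base of their own, 144 (98%) were at 0 in every library, against 2458 of 21392 other genes (11.5%). Pcdhga10, which has no base of its own in that annotation, was at 0 in all 24 libraries, and its value therefore says nothing of its expression. The values of alpha and gamma genes thus come mainly from their variable exons, and levels are compared between genes only per kilobase of unshared exon.

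Library totals recovered from the table ran from 12678114 to 21844579 reads, and the members held 5027 to 11050 reads of a library. The labels name no batch, and p-values set a difference between groups against the spread between these libraries. Summed markers of other tissues varied widely within groups. The choroid plexus sum was at least 34931 normalised counts in 3 libraries (sarcosine replicate 1, memantine replicate 3 and combination replicate 1) and at most 1821 in the others, and 6 of its 8 listed genes were tested. Cortical excitatory markers, all 9 of them detected in every library, summed to 12567 in the lowest library, sarcosine replicate 1, and to 100482 in the highest, vehicle replicate 1. In bulk tissue, fewer cells of a type and less RNA per cell cannot be told apart.

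Of the 58 members, 53 passed the filter of a normalised count of at least 10 in at least 6 libraries, which left 11 alpha, 21 beta and 21 gamma genes. All 53 also passed when the sarcosine libraries were not counted. Besides Pcdhga10, the genes below the filter were Pcdha11 (mean 0.127 normalised counts over 24 libraries), Pcdha4 (0.715), Pcdhb1 (2.25) and Pcdha8 (4.90). In the vM21 annotation Pcdha4 had 404 and Pcdha11 1268 bases of unshared exon, against a median of 2.48 kb for tested alpha genes. How far this lowered the counts of Pcdha4 and Pcdha11 was not tested, so their values are not read as low expression. Pcdhb1 was near 0 in all groups except for 28.7 normalised counts in a single memantine library. Just inside the filter stood Pcdha1 with a mean of 16.3 and Pcdhb2 with a mean of 22.1 normalised counts.

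The highest levels of the family belonged to C-type genes. Over all 24 libraries Pcdhgc5, whose protein binds a GABA-A receptor subunit, stood at 340 normalised counts per kb of unshared exon. Pcdhgc3, which promotes dendrite branching through Axin1 in the mouse, stood at 228, and Pcdhac2, which mouse serotonergic axons need for their tiling, at 137 on the same scale. The highest of the alternate genes, Pcdhga11, reached 128 per kb, and Pcdhgb6 came next at 75.3. The rank of Pcdhga11 rests on a short unshared exon in vM21, 1.26 kb against a gamma median of 2.60 kb. Its mean of 161 normalised counts was below the 193 of Pcdhgb6. The C-type gene Pcdhgc4, on which interneuron survival depends in the mouse, was at 63.2 per kb, above the gamma median of 41.1. Pcdhac1 was not high: it stood at 12.97 per kb, below the alpha median of 19.3.

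The typical gamma gene was present at a higher level than the typical alpha or beta gene. The median per kb was 41.1 for the gamma, 20.6 for the beta and 19.3 for the alpha cluster. The lowest tested members were Pcdha1 (6.54 per kb), Pcdhb2 (7.84 per kb) and Pcdhb21 (9.11 per kb). Across the genes of a cluster, position from the first to the last gene and level per kb had a Spearman correlation of 0.47 in alpha (11 genes), 0.25 in beta (21 genes) and 0.42 in gamma (21 genes). These are descriptions across genes of the same libraries, and genes are not replicates.

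**Figure D1:**
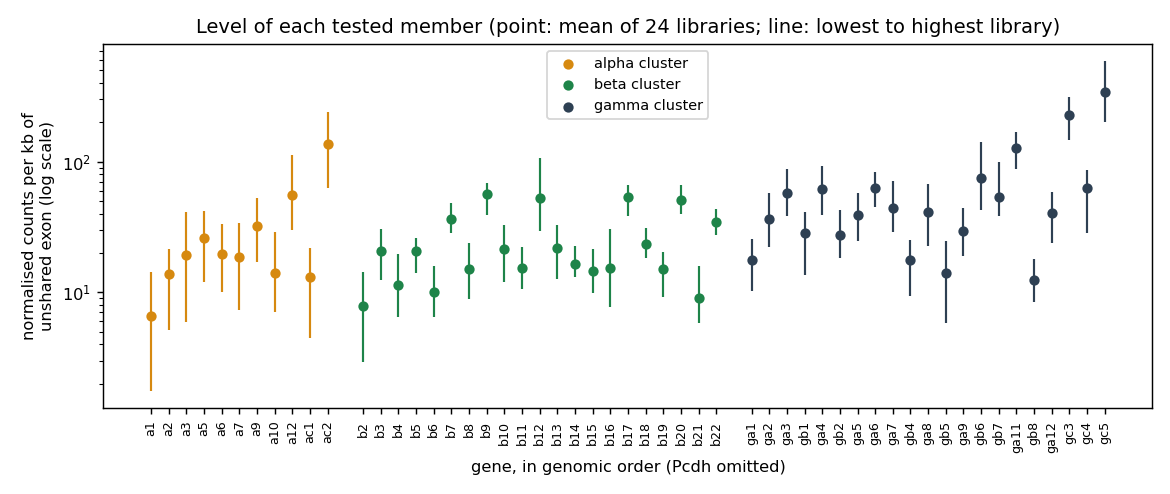
Level of the 53 tested members in genomic order within each cluster, as normalised counts per kb of unshared exon on a log axis. The point is the mean of 24 libraries and the line runs from the lowest to the highest library. The C-type genes Pcdhgc5, Pcdhgc3 and Pcdhac2, toward the end of their clusters, have the 3 highest means.

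Summed over its genes, the gamma cluster was highest in the sarcosine group. Its sum was 3289 ± 422 normalised counts in vehicle and 4909 ± 772 in sarcosine (SD, n = 6 each), a ratio of 1.49. It was 4083 ± 375 in memantine, 1.24 times the vehicle mean. In the combination it was 4057 ± 586, 1.23 times the vehicle mean. The vehicle libraries ran from 2953 to 4096 and the sarcosine libraries from 3492 to 5801, so that 5 of 6 sarcosine libraries lay above every vehicle library and sarcosine replicate 4 lay within the vehicle range.

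The alpha cluster had a larger ratio than the gamma cluster, and a larger spread relative to its mean. Its sum was 707 ± 175 normalised counts in vehicle and 1136 ± 385 in sarcosine (SD, n = 6 each), a ratio of 1.61. Memantine stood at 911 ± 164 and the combination at 904 ± 273. The sarcosine libraries ran from 634 to 1576 and the vehicle libraries from 455 to 912, and 4 of 6 sarcosine libraries exceeded the highest vehicle library.

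The beta cluster differed least between groups. Its sum was 1919 ± 223 normalised counts in vehicle, 2225 ± 260 in sarcosine, 2053 ± 233 in memantine and 1978 ± 274 in the combination (SD, n = 6 each). The ratio of sarcosine to vehicle was 1.16, and 2 of 6 sarcosine libraries lay above the highest vehicle library. As a share of the sum over all members, beta genes made up 32.5% ± 2.75 in vehicle and 27.1% ± 2.06 in sarcosine. Sums weigh each gene by its counts and no p is given for them, and the difference between clusters was not tested.

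**Figure D2:**
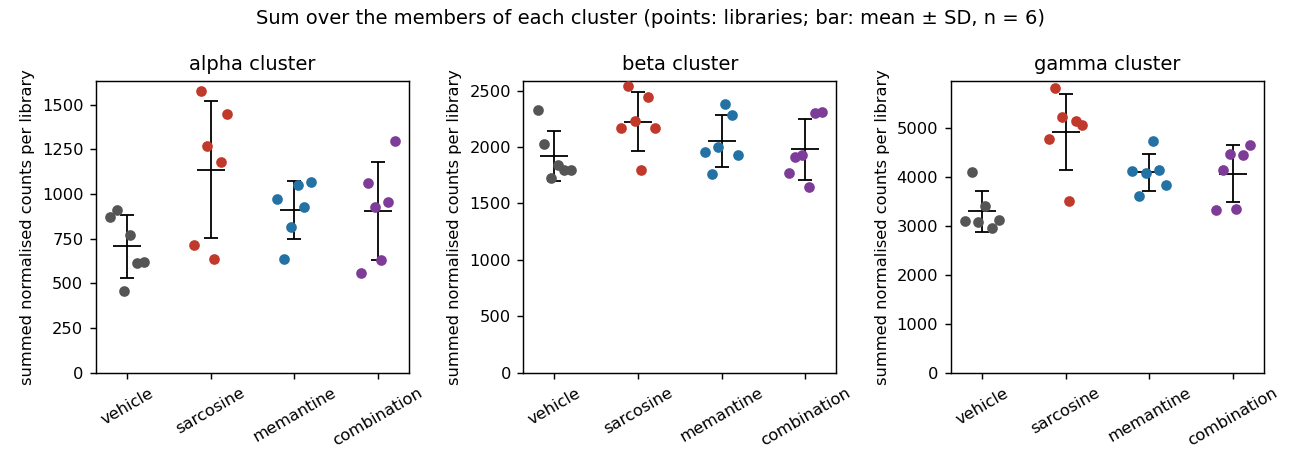
Summed normalised counts of the alpha, beta and gamma members in each library, by group. Points are libraries and bars are the mean ± SD of 6. In the gamma cluster 5 of 6 sarcosine libraries lie above the highest vehicle library (4096), and in the beta cluster 2 of 6 do.

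Between sarcosine and vehicle, 51 of 53 members had a fold above 0, where 49.5% of all tested genes did. At an adjusted p under 0.05 (limma, Benjamini-Hochberg over 16578 genes), 19 of 53 were called higher and 0 lower, beside 4.72% of all tested genes called higher and 4.62% called lower (9.34% in either direction). The median log2 fold was 0.49 over the members and -0.0032 over all genes. Since the family was chosen with this contrast known, nothing is read from these counts. By cluster, 14 of 21 gamma genes, 4 of 21 beta genes and 1 of 11 alpha genes were called, and the median log2 folds were 0.57, 0.19 and 0.72. The alpha genes varied more within groups, with a median SD of 0.52 on the log2 scale where the beta genes had 0.29 and the gamma genes 0.30.

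Among the alternate gamma genes, 9 of 11 A-type and 2 of 7 B-type genes were called higher in sarcosine, with median log2 folds of 0.60 and 0.55. Pcdhga8 ran from 47.5 (median 62.5) to 87.9 normalised counts in vehicle and from 78.0 (median 128) to 141 in sarcosine, a log2 fold of 0.91 (SE 0.19). Its sarcosine libraries lay above the vehicle libraries except for replicate 4. Pcdhga7 ran from 73.9 (median 80.3) to 99.0 in vehicle and from 109 (median 146) to 181 normalised counts in sarcosine, a log2 fold of 0.75 (SE 0.15) with no overlap. Pcdhga1 (log2 fold 0.75) and Pcdhgb2 (log2 fold 0.66) also had no overlap between the groups. Pcdhgb8, the lowest tested gamma gene by mean count, had a log2 fold of 0.23 and was not called.

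The other called alternate gamma genes had log2 folds between 0.50 and 0.66. Pcdhga5, a gene of the same A type, ran from 63.1 (median 76.9) to 103 normalised counts in vehicle and from 94.9 (median 125) to 145 in sarcosine. Pcdhgb6 ran from 110 (median 141) to 184 in vehicle and from 184 (median 219) to 359 normalised counts in sarcosine, the highest value being replicate 1. For Pcdhga3, Pcdhga4, Pcdhga9, Pcdhga2 and Pcdhga6 the log2 folds were 0.64, 0.60, 0.58, 0.57 and 0.50, and the lowest sarcosine library lay below the highest vehicle library in each. Pcdhga2 lost its call when any of 9 libraries was left out (vehicle replicates 1, 3, 5 and 6, sarcosine replicates 1, 2, 3, 5 and 6).

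All 3 gamma C-type genes were called higher in sarcosine, but Pcdhgc3 and Pcdhgc5 were not after the length correction. Pcdhgc3 also lost its call without vehicle replicate 1 or without sarcosine replicate 1, 3 or 5, and Pcdhgc5 when any of 14 libraries was left out (vehicle replicates 1, 3, 4, 5 and 6, sarcosine replicates 2, 3, 5 and 6, memantine replicates 1, 5 and 6, and combination replicates 2 and 5). Pcdhgc5 ran from 919 (median 1244) to 1671 normalised counts in vehicle and from 1106 (median 2051) to 2729 in sarcosine, a log2 fold of 0.56 (SE 0.18), and the groups overlapped. Pcdhgc3 ran from 267 (median 383) to 387 in vehicle and from 414 (median 462) to 565 normalised counts in sarcosine, a log2 fold of 0.39 (SE 0.11) without overlap. Pcdhgc4 ran from 98.5 (median 163) to 232 in vehicle and from 233 (median 262) to 299 normalised counts in sarcosine, a log2 fold of 0.73 (SE 0.17), and its groups touched without overlapping. The C-type share of the gamma sum was 54.2% ± 2.83 in vehicle and 53.6% ± 4.44 in sarcosine, a difference smaller than the spread between libraries.

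In the alpha cluster only Pcdhac2 was called, and it lost the call without vehicle replicate 3 or 6, without sarcosine replicate 2, 3, 5 or 6, and after the length correction. It ran from 189 (median 319) to 368 normalised counts in vehicle and from 316 (median 598) to 725 in sarcosine, a log2 fold of 0.80 (SE 0.23), and all 6 sarcosine libraries lay above the vehicle mean. Pcdhac1 had a log2 fold of 0.82 (SE 0.29) and was not called. The C-type share of the alpha sum was 46.4% ± 2.60 in vehicle and 51.9% ± 2.07 in sarcosine. For the 9 alternate alpha genes the log2 folds ran from 0.27 to 0.87. Pcdha12, the alternate alpha gene with the most counts, was lowest at 0.27.

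In the beta cluster the folds were the most uneven. Pcdhb16, a beta adhesion gene without constant exons, had the largest log2 fold of the family at 0.96 (SE 0.18). Its values ran from 40.4 (median 55.9) to 69.5 normalised counts in vehicle and from 82.0 (median 98.04) to 158 in sarcosine, without overlap. Pcdhb21, Pcdhb19 and Pcdhb2 were the other called beta genes. Pcdhb21 ran from 25.1 (median 33.1) to 36.9 normalised counts in vehicle and from 35.4 (median 55.3) to 67.8 in sarcosine, and only the lowest sarcosine library fell within the vehicle range. Pcdhb2 had a log2 fold of 0.88 (SE 0.27) at low counts, and Pcdhb19 one of 0.54 (SE 0.14). Leaving out vehicle replicate 3 or sarcosine replicate 5 ended the call of Pcdhb19, and leaving out any of 7 libraries (vehicle replicates 1, 2, 3 and 6, sarcosine replicates 2, 5 and 6) that of Pcdhb2.

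The beta genes with the most counts stood close to vehicle. Pcdhb22 ran from 180 (median 212) to 264 normalised counts in vehicle and from 195 (median 209) to 267 in sarcosine, a log2 fold of 0.028 (SE 0.095). Pcdhb17 ran from 224 (median 233) to 275 in vehicle and from 195 (median 269) to 307 normalised counts in sarcosine, a log2 fold of 0.15 (SE 0.13). For both beta genes the groups overlapped. Pcdhb12 had the lowest log2 fold of all members at -0.32 and was not called, and its name is given after its values were seen. Vehicle replicate 1 stood at 117 normalised counts and the other vehicle libraries between 52.4 and 60.7, and without that library the log2 fold was -0.15 (SE 0.18).

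Of the 53 members, 6 had every sarcosine library above every vehicle library, against 1.93% of all tested genes. These were Pcdhb16, Pcdhga1, Pcdhgb2, Pcdhga7, Pcdhgc3 and Pcdhgc4. The sarcosine mean was the highest of the 4 group means in 45 of 53 members, against 29.8% of all tested genes, and the vehicle mean was the lowest in 47 of 53, against 31.7%. The 6 members in which vehicle was not lowest were all beta genes.

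**Figure D3:**
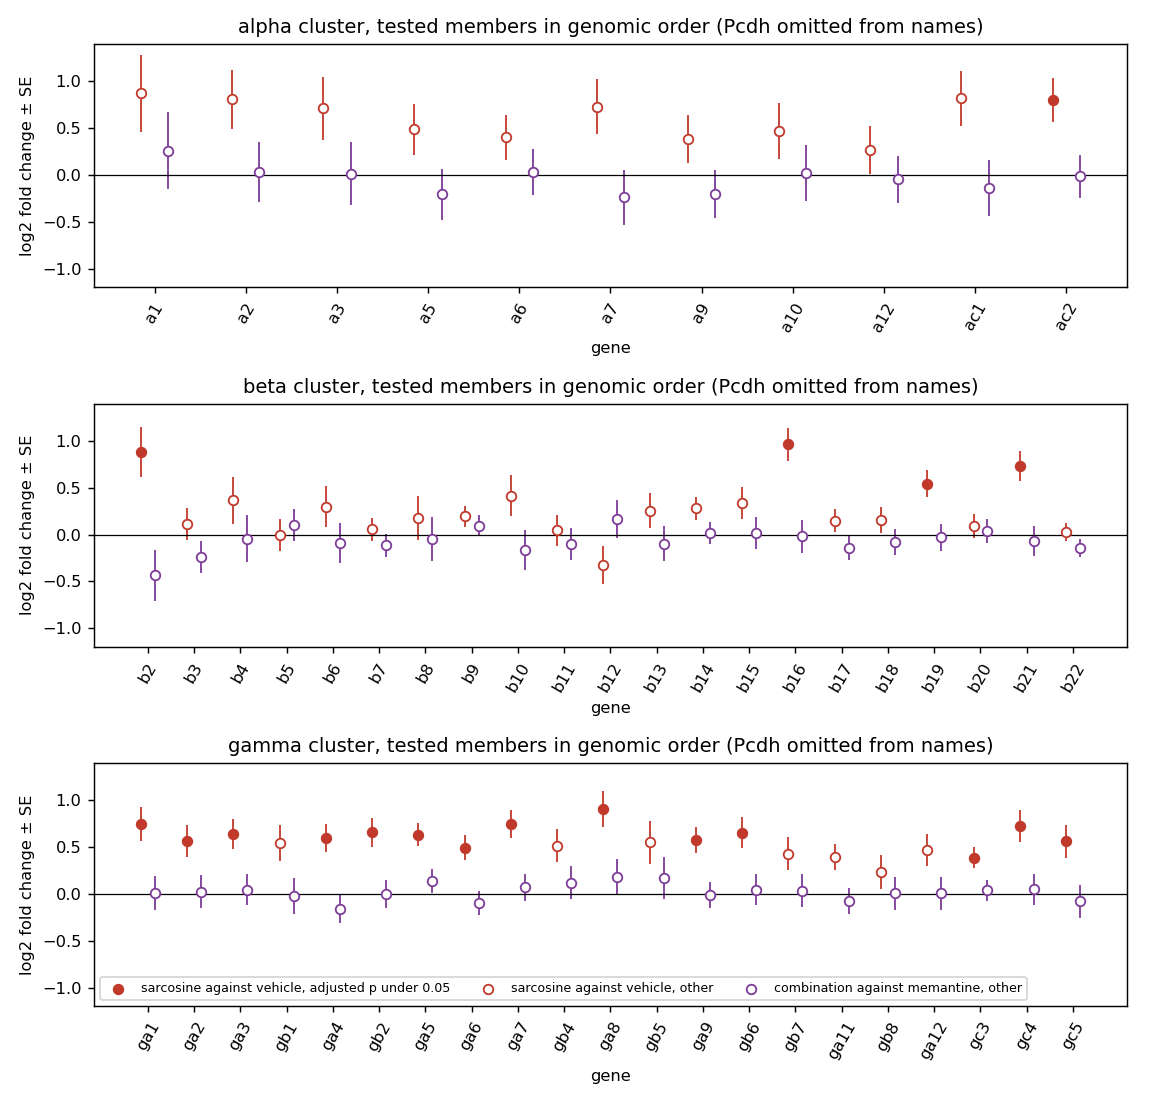
Log2 fold changes ± SE of the tested members in genomic order, for sarcosine against vehicle (red) and for the combination against memantine (purple). Filled points have an adjusted p under 0.05. The red points lie above 0 for 51 of 53 members, with the largest at 0.96 (Pcdhb16), and the purple points run from -0.44 to 0.26 with none filled.

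A measure of the libraries tied to transcript length moved with the same groups, and the source of that measure was not tested. For each library the log2 deviation of every tested gene from its mean over all libraries was regressed on the log10 length of its longest transcript. The slope was -0.23 ± 0.096 in vehicle, 0.18 ± 0.15 in sarcosine, 0.064 ± 0.070 in memantine and -0.018 ± 0.18 in the combination (SD, n = 6 each), so that long transcripts had on average higher values in the sarcosine libraries. The members' longest transcripts had a median of 4.72 kb, against 3.28 kb over all tested genes. By cluster the median was 5.34 kb in alpha, 3.72 kb in beta and 4.72 kb in gamma. Within groups, the library with the lowest slope also had the lowest gamma sum in 3 of 4 groups, the lowest beta sum in 3 and the lowest alpha sum in 4. The library with the highest slope had the highest gamma sum in 3 of 4 groups, and the highest alpha and beta sums in 2 each.

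After correction of the values for transcript length and GC content, 5 of the members were called in sarcosine against vehicle, all of them among the 19, beside 1.15% of all genes. They were Pcdhb16, Pcdhga7, Pcdhga5, Pcdhga8 and Pcdhgc4, and the members' median log2 fold was 0.38. By cluster this corrected median was 0.59 in alpha, 0.16 in beta and 0.49 in gamma. When the length of unshared exon replaced the transcript length, 13 of the 19 were called, beside 1.95% of all genes, and the median was 0.55. The part of the length slope in the members' values was not tested beyond these fits.

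**Figure D4:**
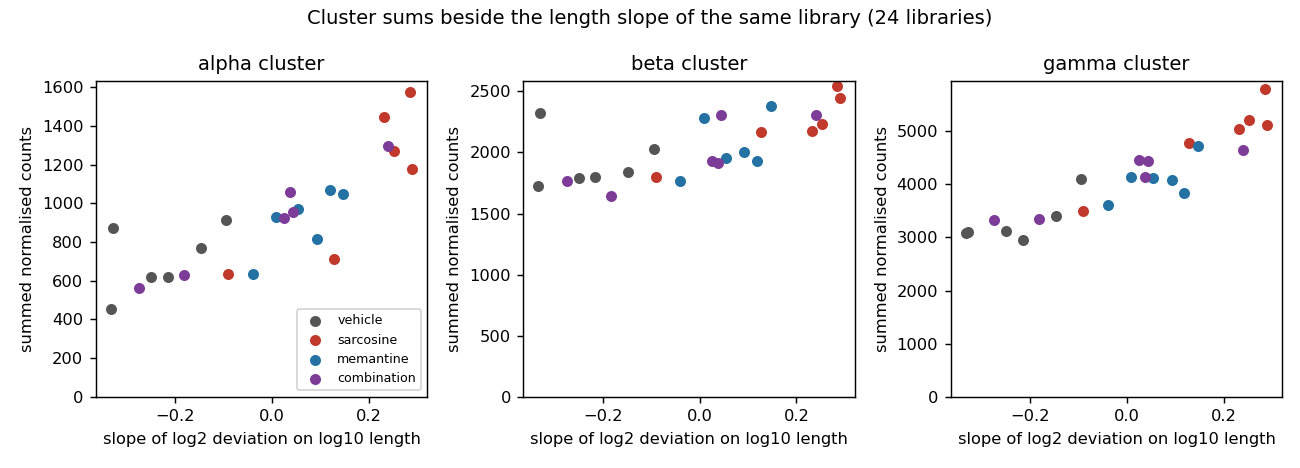
Summed normalised counts of each cluster (vertical axis) beside the slope of log2 deviation on log10 transcript length in the same library (horizontal axis), for 24 libraries coloured by group. Vehicle slopes run from -0.33 to -0.095 and sarcosine slopes from -0.090 to 0.29, and the sarcosine library with the lowest slope, replicate 4, has the lowest sum of its group in all 3 clusters.

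Composition of the punch was set beside the lowest library of each cluster. The library with the lowest alpha sum also had the lowest sum of cortical excitatory markers in 3 of 4 groups, sarcosine being the exception, and for beta and gamma this held in 2 of 4. It had the highest sum of oligodendrocyte markers in 2 of 4 groups for alpha and 1 each for beta and gamma. For choroid plexus markers the counts were 2, 1 and 1, and for striatal markers 1, 2 and 0, in alpha, beta and gamma. The other marker lists were not counted in this way. Among them, the astrocyte sum was also highest in the lowest alpha library of vehicle (28025), memantine (25414.5) and the combination (23331.7). In sarcosine it was not. Cortical excitatory markers (9 of 9 tested) summed to 27982 to 100482 normalised counts in vehicle, 12567 to 76108 in sarcosine, 29875 to 70128 in memantine and 35984 to 60071 in the combination. Oligodendrocyte markers (8 of 8 tested) summed to 55664 to 309784 in vehicle, 32254 to 219393 in sarcosine, 30742 to 263364 in memantine and 40395 to 263660 in the combination. None of these markers was at 0 in any library, and the ranges of the 4 groups overlapped in both lists. Within groups, pairs of alpha genes had a median Pearson correlation of 0.72 over the 24 libraries (55 pairs of genes), where pairs of beta genes had 0.41 and pairs of gamma genes 0.41. These correlations share libraries and depth and are given as a description. With scores of striatal, olfactory bulb and choroid plexus markers as covariates, 28 members were called in sarcosine against vehicle, among them all 19, and 8 of those 28 were alpha genes. In that fit 19.1% of all tested genes were called, against 9.34% without the covariates. Without the 3 libraries rich in choroid plexus RNA, 19 members were called, 17 of them the same, beside 8.76% of all tested genes.

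Memantine alone against vehicle gave 0 of 53 members called, beside 0.0121% of all tested genes (limma, adjusted p under 0.05). At an unadjusted p under 0.05 there were 13 members, against 14.7% of all genes. Both edgeR, which called 0.0181% of all genes, and DESeq2, which called 3.51%, called 0 members. Of the 53 folds, 50 were above 0, against 48.6% of all genes, and their median on the log2 scale was 0.26, with 0.39 in alpha, 0.11 in beta and 0.31 in gamma. The vehicle libraries are the same as in the sarcosine contrast, so the values of the contrasts are not independent.

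The smallest p in memantine against vehicle belonged to Pcdhgb1, a gamma gene of the B type. It ran from 35.5 (median 54.5) to 72.7 normalised counts in vehicle and from 55.3 (median 82.5) to 96.9 in memantine, a log2 fold of 0.60 (SE 0.19, limma adjusted p = 0.146). The groups overlapped. Pcdhgb2 (log2 fold 0.45, limma adjusted p = 0.164) and Pcdhga7 (log2 fold 0.40, limma adjusted p = 0.195) came next, and neither passed. Pcdhac1 had the largest log2 fold at 0.80 (SE 0.29, limma adjusted p = 0.198).

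The combination against vehicle gave 0 of 53 members called, beside 0.543% of all tested genes. At an unadjusted p under 0.05 there were 13 members, against 14.2% of all genes. Both edgeR (0.422% of all genes called) and DESeq2 (3.72%) called 0 members. Of the 53 folds, 46 were above 0, against 49.9% of all genes, and their median on the log2 scale was 0.24, with 0.38 in alpha, 0.064 in beta and 0.34 in gamma, against the same vehicle libraries. Pcdhga7 had the smallest p: its combination libraries ran from 93.2 (median 121) to 138 normalised counts, a log2 fold of 0.47 (SE 0.15, limma adjusted p = 0.120). Pcdhgb1 (log2 fold 0.58, limma adjusted p = 0.147) and Pcdhgc4 (log2 fold 0.49, limma adjusted p = 0.150) did not pass either.

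The combination against sarcosine bears on the question in the series title. It gave 0 of 53 members called, beside 0% of all tested genes, and edgeR and DESeq2 also called 0. At an unadjusted p under 0.05 there were 9 members, against 8.70% of all genes. Of the 53 folds, 5 were above 0, against 49.9% of all genes, and 48 were below 0, with a median log2 fold of -0.23 and cluster medians of -0.27 in alpha, -0.18 in beta and -0.23 in gamma. The sarcosine libraries are those in which the family was seen to be high, so a lower value in any other group is partly set by that choice.

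Pcdhb21 had the smallest p in that contrast. Its combination libraries ran from 24.7 (median 35.3) to 40.0 normalised counts, a log2 fold against sarcosine of -0.66 (SE 0.16, limma adjusted p = 0.262), and those values overlapped the vehicle range of 25.1 to 36.9. Pcdhga4 followed with a log2 fold of -0.54 (SE 0.15, limma adjusted p = 0.335). For Pcdhb16, the combination ran from 59.6 (median 72.5) to 101 normalised counts, its median between the vehicle and sarcosine medians of 55.9 and 98.04, and the log2 fold against sarcosine was -0.51 (SE 0.18, limma adjusted p = 0.396).

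The combination against memantine shares no library with the contrast in which the family was noticed. It asks what sarcosine added in mice that also received memantine. None of the 53 members was called, beside 0.0543% of all tested genes, edgeR and DESeq2 called 0, and 0 members had an unadjusted p under 0.05, against 7.72% of all genes. The median log2 fold was -0.011, with -0.012 in alpha, -0.068 in beta and 0.028 in gamma, and 26 of 53 folds were above 0, against 48.7% of all genes.

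The members with the most counts and with the largest differences between sarcosine and vehicle are given here with 95% intervals. Pcdhgc5 ran from 1258 (median 1623) to 1842 normalised counts in memantine and from 1152 (median 1603) to 1741 in the combination, a log2 fold of -0.078 with a 95% interval of -0.44 to 0.28. The ranges overlapped almost fully. Pcdhb16 had a log2 fold of -0.018 with an interval of -0.38 to 0.35. For Pcdhga7 the log2 fold was 0.072 with an interval of -0.23 to 0.37. For Pcdhga8 it was 0.18, with an interval of -0.21 to 0.58. The smallest p belonged to Pcdhb2, with a log2 fold of -0.44 (SE 0.27, limma adjusted p = 0.789).

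**Figure D5:**
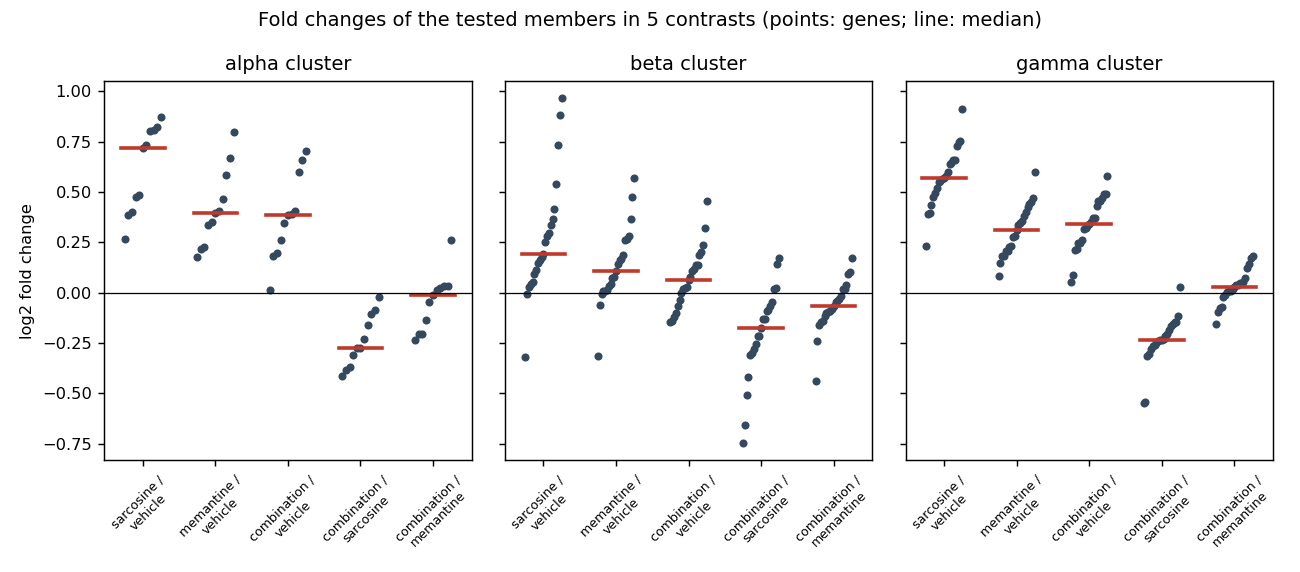
Log2 fold changes of the tested members in 5 contrasts, by cluster. Each point is a gene and the line is the median. The gamma medians are 0.57 for sarcosine against vehicle, 0.31 for memantine against vehicle, 0.34 for the combination against vehicle, -0.23 for the combination against sarcosine and 0.028 for the combination against memantine.

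Whether the sarcosine difference depended on memantine was tested as an interaction, the combination minus memantine less sarcosine minus vehicle. It contains the sarcosine difference that was known when the family was chosen, so the members' interactions are given as a description, without p-values. At an adjusted p under 0.05, 1 of 53 members was called lower, beside 1.24% of all tested genes called lower and 1.82% called in either direction. That member was Pcdhb16, the gene noticed first, with an interaction of -0.98 on the log2 scale (SE 0.25). It was not called by edgeR, nor in 20 of the 24 fits that left out 1 library.

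Of the 53 interactions, 51 were below 0 and 2 above, against 51.6% of all genes above 0, and the median was -0.50 on the log2 scale. An unadjusted p under 0.05 was found for 23 members, against 16.8% of all genes. Pcdhb21 (-0.80), Pcdhga4 (-0.75) and Pcdhb2 (-1.32) came nearest to being called without passing. After the length correction 0 members were called.

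The genes around the family were taken as 3 lists, chosen with earlier results known. The unclustered protocadherins are adhesion genes outside the clusters, and 0 of 12 were called in sarcosine against vehicle, with 2 at an unadjusted p under 0.05, where 22.3% of all tested genes had one, and a median log2 fold of 0.22. Pcdh11x, an X-linked member of that group, had a log2 fold of 0.51 (limma adjusted p = 0.0539). Partners and signalling proteins of the clustered protocadherins, such as Adam10, which sheds the extracellular part of gamma proteins in the mouse, gave 0 of 30 called, with 5 at an unadjusted p under 0.05, against the same 22.3%. Adam10 had a log2 fold of 0.19, and Brk1, a subunit of the WAVE actin regulator that alpha proteins recruit, one of -0.28.

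Chromatin regulators linked to promoter choice in the clusters gave 7 of 24 called higher and 0 lower in sarcosine against vehicle, beside the 4.72% of all genes. Among them were the cohesin loader Nipbl (log2 fold 0.34), the cohesin release factor Wapl (0.28) and its partners Pds5a (0.31) and Pds5b (0.36), the silencing protein Smchd1 (0.37) and the histone methyltransferase Ehmt1 (0.29). After the length correction 0 of the 24 were called. Ctcf, whose product binds the cluster promoters, had a log2 fold of 0.14 and was not called. In the interaction 4 regulators were called lower, beside 1.24% of all genes, and 0 after the length correction. They were Smchd1 (-0.49), Nipbl (-0.50), Pds5a (-0.43) and Pds5b (-0.38), all on the log2 scale. In the other 4 contrasts 0 genes of the 3 lists were called.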

How the data were processed

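The deposited table gives 1 normalised count per gene and library, a signal that the authors made by dividing read counts by a size factor for each library, as its values show. Per the submitters' processing notes, FastQC, STAR, featureCounts 1.6.0 and DESeq2 1.42.1 were used with the mouse build mm39; how featureCounts treated shared exons is not given in the sources used here. Within 0.01 of a read, 100% of values were whole multiples of a step for each library, and whole reads were recovered from it. Gene lengths and shared exons came from GENCODE vM21, an annotation of an older build, so only lengths and gene order are used; all 58 member IDs matched.

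Values were tested as log2(value + 1) for the 16578 genes that reached 10 in 6 or more libraries, with limma 3.58.1 in R 4.3.3 on 4 group means over 24 libraries, 6 contrasts, Benjamini-Hochberg adjusted. Fold changes are on this scale, which understates the change of low genes. On the recovered reads, edgeR 4.0.16 called 19 members in sarcosine against vehicle and DESeq2 1.42.0 called 23. The procedure was also run on simulated counts, drawn independently for each gene without a length slope or differences in punch composition. That run therefore does not cover these features of the data. The members and gene lists were chosen with earlier results of these data known. Members picked for naming were the C-type genes and, in each cluster, the 2 with the most and the 2 with the fewest counts. Also picked were the 6 with the smallest p in each contrast and called genes with a mean of at least 50. Genes at 0 and genes at the filter were added, and not all members picked appear in the text. Of the other lists, up to 6 called genes and those with the smallest p were named; 1 result is not reported here. Alternatives covered scaling, filter, pseudocount, length correction, marker covariates, weights and single libraries left out.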

Additional observations from a re-analysis of the deposited data

Results flagged for a closer look

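Among 36 members picked for naming and the cluster sums, 17 of 156 groups of 6 held a library far from its neighbour for the range of its group. Chance gives about 1 in 20 for independent, normally distributed values. Genes near 0 and genes of the same libraries do not meet that condition, so the 2 rates are not compared. Not all of the 36 members appear in the text, and Pcdhga10, at 0 in every library, could not be flagged. In vehicle these were Pcdhb17, at 275 normalised counts in replicate 1 (next 240), Pcdhga3, at 169 in replicate 2 (next 119), and Pcdhb12, at 117 in replicate 1 (next 60.7). In sarcosine, Pcdhb22 was at 267 in replicate 2 (next 217), Pcdhga8 at 78.0 in replicate 4 (next 123), and Pcdhgb6 at 359 in replicate 1 (next 231). In memantine, Pcdhga7 was at 167 in replicate 4 (next 111), Pcdhga9 at 82.5 in replicate 1 (next 102), and Pcdhgb8 at 45.1 in replicate 4 (next 29.6). Pcdhb1 was at 28.7 in memantine replicate 4 (next 1.90). In the combination Pcdhgb8 was at 42.3 in replicate 5 (next 30.9). The remaining cases were genes below the filter, where a few reads decide the gap. These comprise Pcdha11 at 2.11 in vehicle replicate 2 and 0.946 in sarcosine replicate 2 (the others of its group at 0), Pcdha4 at 2.81 in vehicle replicate 5 (the others of its group at 0), Pcdha8 at 0 in vehicle replicate 3 (next 4.68), and Pcdhb1 at 3.16 in vehicle replicate 2 (next 1.16) and 4.11 in combination replicate 4 (next 1.14). The interaction of Pcdhb16, -0.98 on the log2 scale, was called in the limma fit. DESeq2 also called it, but edgeR and the fits with either length correction did not. It was lost in 20 of the 24 fits that left out 1 library. The interaction contains the difference by which the gene was noticed.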

How the results depend on the processing

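In sarcosine against vehicle the 19 calls became 11 with the libraries of that contrast alone, 5 after the transcript length correction and 29 with array weights, while the share of all genes called went from 9.34% to 5.91%, 1.15% and 19.0%. The other 12 alternatives gave counts within 1.5 times of 19, and leaving out 1 library gave 13 (without sarcosine replicate 5) to 25 (without sarcosine replicate 4). In 13 of the 19 genes the call held in every such fit, and Pcdhac2, Pcdhb2, Pcdhb19, Pcdhga2, Pcdhgc3 and Pcdhgc5 lost it in at least 1. The interaction's 1 call became 0 without a filter on low values, with edgeR, after either length correction and without the 3 choroid-rich libraries. It became 5 with DESeq2, 8 with marker covariates and 18 with array weights, where 7.54%, 8.98% and 9.14% of all genes were called, against 1.82%. Leaving out 1 library gave 0 to 8 interaction calls, 8 without sarcosine replicate 4. Memantine against vehicle and the combination against sarcosine each had 1 call with array weights, and the combination against vehicle 3 with marker covariates. These 3 contrasts and the combination against memantine otherwise gave 0, also when leaving out 1 library. The causes were not tested. The ratio of sarcosine to vehicle sums ran from 1.48 to 1.75 in alpha, 1.13 to 1.21 in beta and 1.44 to 1.58 in gamma when leaving out 1 library. Of 36 pairs of libraries with the same replicate number, 18 had a correlation of deviations above 0.1 (median 0.11). Among pairs with different numbers it was 76 of 180 (median -0.016). Whether the replicate number marks a block was not tested. With a replicate block, 17 members were called in sarcosine against vehicle and 0 in the interaction and the other contrasts. The alternatives with unshared exon length and without choroid-rich libraries were chosen after seeing the data. Counting error limits the genes with few reads, such as Pcdha1 and Pcdhb2.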
